A study of Mus musculus with 9 samples.

Results

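The cytoplasmic ribosomal protein genes were taken as the protein-coding genes whose symbols follow the Rpl or Rps pattern with a number, together with Rplp0, Rplp1, Rplp2 and Rpsa. The rule found 83 genes among the 54232 gene IDs counted. Of these, 43 encode proteins of the large subunit, 31 encode proteins of the small subunit and 3 encode the stalk proteins, and these 77 are called the core members. The other 6 are paralogs, whose symbols end in l or l1 (Rpl3l, Rpl7l1, Rpl10l, Rpl22l1, Rpl39l and Rps27l), and they are given apart. The members lie on all autosomes except 19 and on X, with 14 on chromosome 7 as the largest number on a chromosome and 4 on X (Rpl10, Rpl36a, Rpl39 and Rps4x).

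Most core proteins are present in equal numbers in each ribosome, the stalk proteins Rplp1 and Rplp2 in more copies, and the mRNAs of these proteins are among the most abundant of a dividing cell. Their translation is controlled together through the terminal oligopyrimidine (TOP) tract at the start of the mRNA, on which growth signals through mTOR act. Pluripotent cells divide fast, and MYC factors are known to drive ribosomal protein and ribosome assembly genes in them. Ribosomal protein genes also have very many processed pseudogenes, copies of their mRNAs inserted in the genome, to which short reads can align equally well.

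The cells were OG2 ES cells of C57BL6 × CBA mice, which carry GFP under the distal Oct4 promoter, so that every naïve and primed library comes from 1 line. Naïve mESCs were kept in serum and LIF, and primed mEpiSCs were made from them with Fgf2 and Activin A, both on mitomycin C-inactivated MEF feeder cells. Poly(A) RNA of each state was sequenced at P5 and at P15 with 2 libraries for each, and 1 library was made of MEFs. The libraries of a group are called biological repeats by the study, and p-values measure the spread between them. Total counts ranged from 14378051 to 20985136 over the 8 libraries of both states, and MEFs had 25646547. The 10 naïve markers, among them Zfp42 and Esrrb, all fell in primed cells at both passages, and the 8 primed markers, among them Fgf5 and T, all rose. The 30 fibroblast markers summed to 18228 and 18227 CPM in naïve cells at P5, 11599 and 11355 CPM in primed cells at P5, 28305 and 29194 CPM in naïve cells at P15 and 20595 and 19715 CPM in primed cells at P15, against 108753 CPM in MEFs, and no marker was at 0 in any library. Levels are CPM (counts divided by the library size in units of 1e6, after TMM factors from the 9 libraries). In bulk RNA, fewer cells of a type and less RNA per cell cannot be told apart.

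Core members held a smaller part of the counts in primed than in naïve cells at both passages. The share was 8.27% and 8.25% of all counts in the naïve libraries at P5 and 6.82% and 7.02% in the primed libraries at P5. At P15 it was 8.26% and 8.002% in naïve cells and 7.26% and 7.34% in primed cells. Every primed library thus lay below every naïve library, and both primed libraries at P15 lay above both at P5. The MEF library was lowest with 5.91% (95% Wilson interval 5.90% to 5.92%, counting error only). On the TMM scale, which rests on the genes that differ least between libraries, the summed level was 85361 ± 601 CPM (SD, n = 2) in naïve and 62011 ± 1243 CPM in primed cells at P5. The same sum was 85556 ± 2845 CPM in naïve and 71251 ± 31.6 CPM in primed cells at P15.

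**Figure D1:**
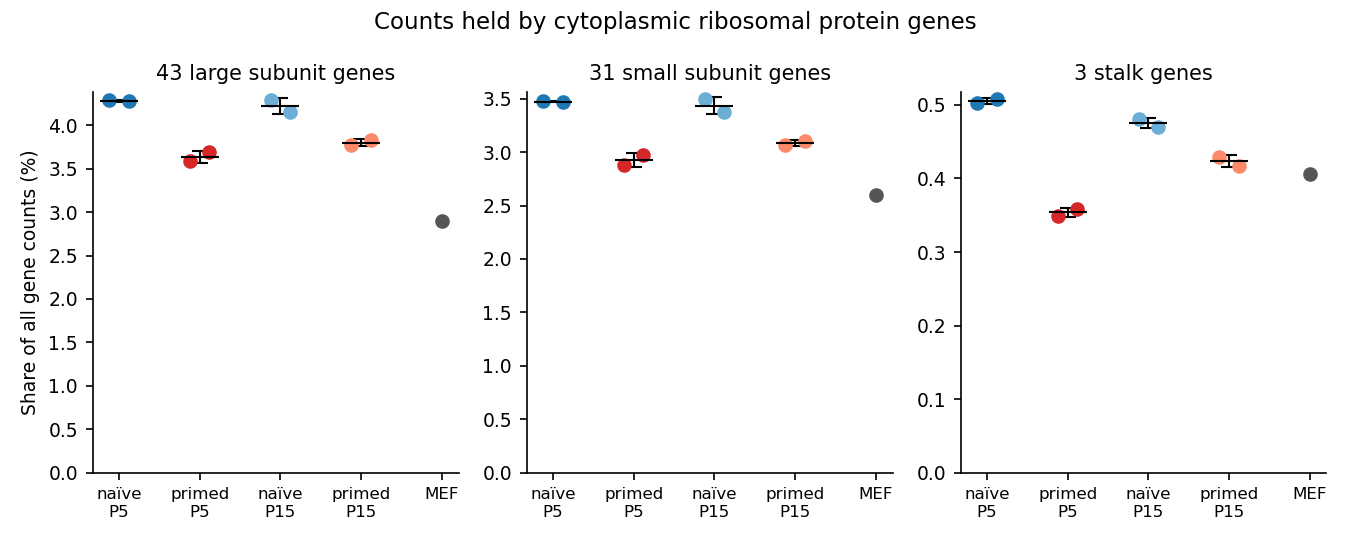
Share of all gene counts (percent, y axis from 0) held by the large subunit, small subunit and stalk genes in each library (points) of the naïve, primed and MEF groups, with the mean and SD of 2 libraries (bars; MEF has 1 library and no bar). Naïve libraries lie above primed ones at each passage in all 3 panels, and the stalk genes go from 0.349% and 0.358% at primed P5 to 0.429% and 0.417% at primed P15.

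The share was lower in primed cells for both subunits. The large subunit genes held 4.28% ± 0.00854 of the counts in naïve and 3.64% ± 0.0712 in primed cells at P5 (SD, n = 2), and the small subunit genes held 3.47% ± 0.00578 and 2.93% ± 0.0659. The ratio of small to large subunit counts stayed between 0.803 and 0.815 in the 8 naïve and primed libraries and was 0.896 in MEFs.

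At P5, nearly every core member was lower in primed mEpiSCs than in naïve mESCs, by a small amount. Of the 77 core members tested, 75 fell and 0 rose at an adjusted p under 0.01 (edgeR's quasi-likelihood test, Benjamini-Hochberg adjustment over 16482 genes), where 31.1% of all genes fell and 31.2% rose. In 76 of them both primed libraries lay below both naïve libraries, as in 41.9% of all genes, and in 0 above them, as in 42.6%. The median log2 fold change was -0.43 for the core members and 0.01 for all genes, so that the median core member fell by 25.6%. No core member was called with a 2-fold change, against 22.3% of all genes in either direction. The large subunit fell in 41 of 43 genes with a median of -0.42, and the small subunit in 31 of 31 with a median of -0.43. Scaling by library size alone moved the median of all genes to 0.21 and that of the core members to -0.22, and 60 core members then fell.

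The 5 largest falls past the threshold at P5 were those of Rplp0, Rplp1, Rpsa, Rpl4 and Rpl8. Rplp0, the base of the stalk that brings translation factors to the ribosome, had 2414 and 2409 CPM in naïve and 1398 and 1426 CPM in primed cells. Its log2 fold change was -0.77 ± 0.03 (SE, edgeR adjusted p = 1.09e-19). Rplp1, which binds to the stalk base as a dimer with Rplp2, had 2012 and 2027 CPM in naïve and 1201 and 1241 CPM in primed cells (log2 fold change -0.72 ± 0.03). Rplp2 had 792 and 796 CPM against 533 and 541 CPM and a log2 fold change of -0.56 ± 0.03. In all 3 stalk genes both primed values lay below both naïve values, by more than the replicates of either state differed.

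Rpsa, a small subunit protein also known as the laminin receptor precursor, had 2742 and 2703 CPM in naïve and 1687 and 1726 CPM in primed cells at P5, a log2 fold change of -0.67 ± 0.03 (edgeR adjusted p = 2.56e-18). Rpl4, part of the wall of the tunnel through which the new peptide leaves, had 3058 and 2948 CPM against 1911 and 1952 CPM (-0.63 ± 0.03). Rpl8, which lies near the catalytic centre of the large subunit, had 2104 and 2047 CPM against 1339 and 1363 CPM (-0.62 ± 0.03). Rpl4 held 3.56% and 3.47% of the core counts in naïve and 3.13% and 3.10% in primed cells, so that its part of the pool was also lower.

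The exceptions at P5 were Rpl24 and Rpl38. Rpl38, a large subunit protein needed for the axial skeleton of mice, had 255 and 213 CPM in naïve and 196 and 239 CPM in primed cells, and these ranges overlap (log2 fold change -0.10 ± 0.06, edgeR adjusted p = 0.137). Rpl24 had 30 and 23 counts in naïve and 10 and 11 counts in primed cells and -1.21 ± 0.44 (edgeR adjusted p = 0.0147). An overlapping gene, Gm28037, covers 83.4% of its coding sequence and was listed at 0 counts in all 9 libraries, and the part of this in the low count was not tested.

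**Figure D2:**
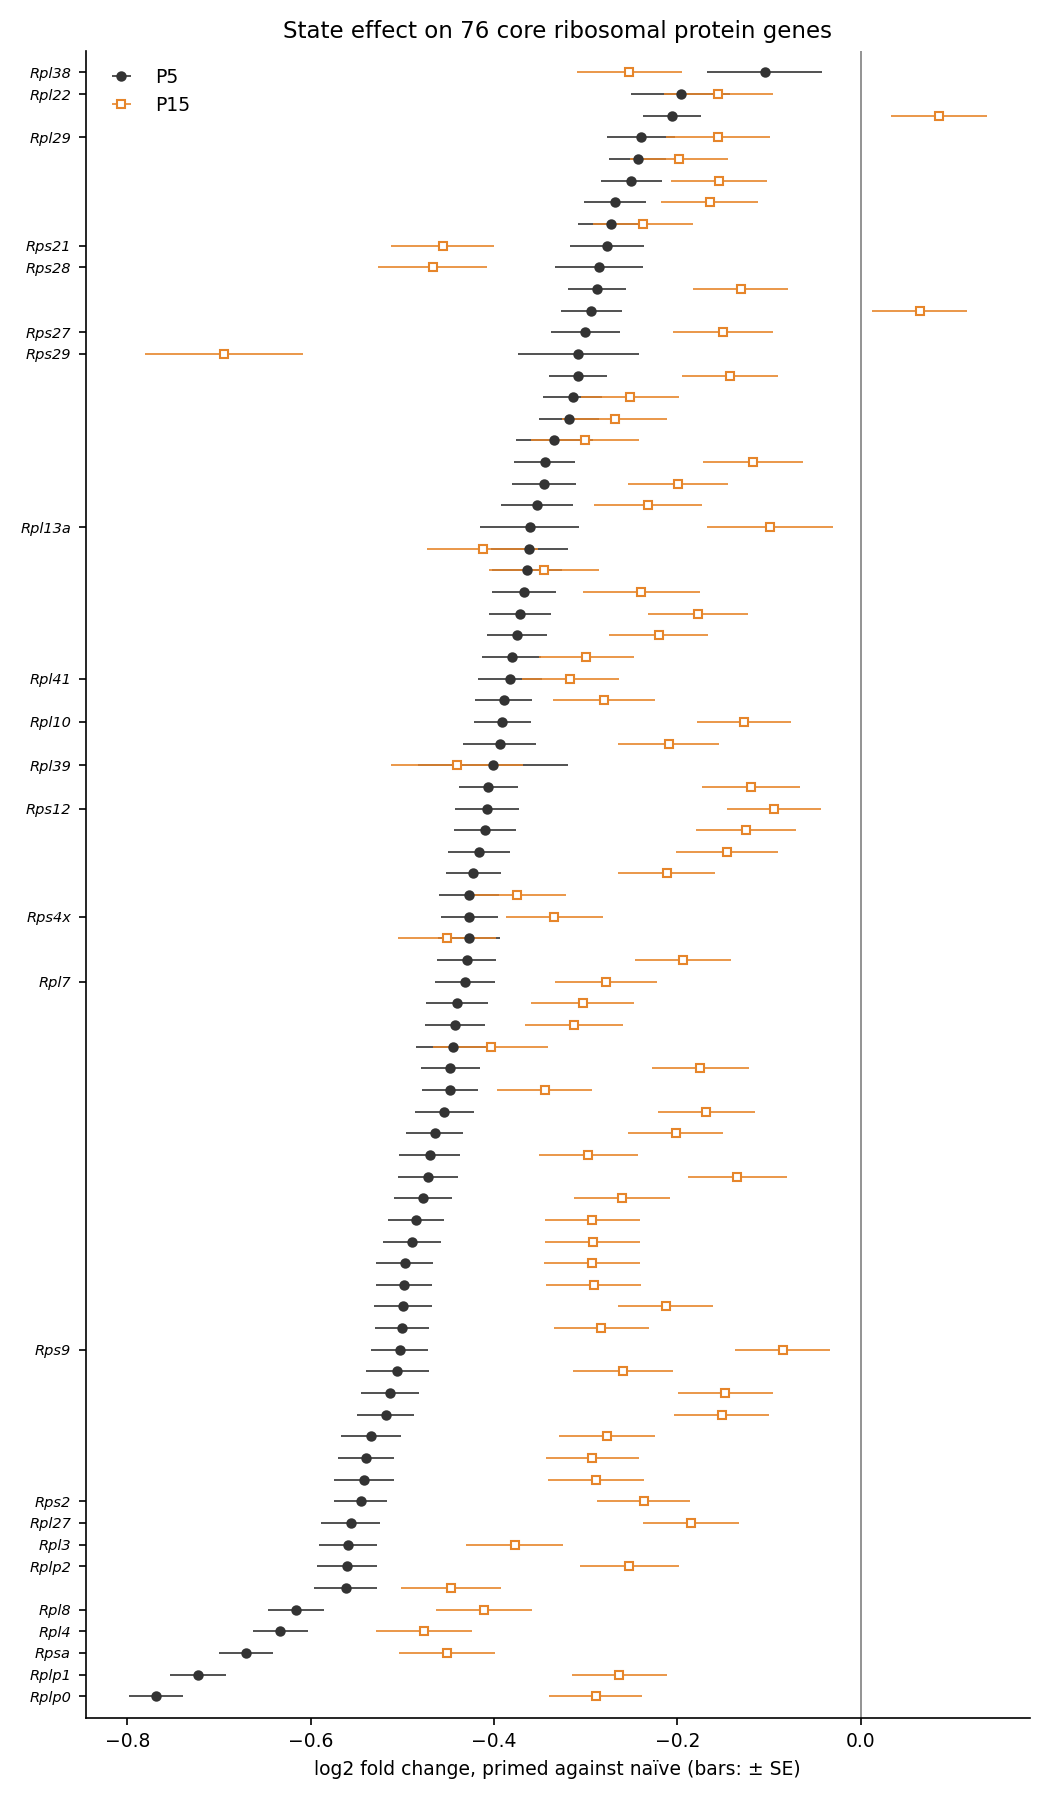
Log2 fold change of primed against naïve cells (x axis) with its SE (bars) for 76 core members (y axis, ordered by the value at P5, with names for the genes that the naming rule gives), at P5 (filled circles) and P15 (open squares); Rpl24 is left out for its low counts. All circles lie left of 0, from -0.77 for Rplp0 to -0.10 for Rpl38, and most squares lie nearer to 0, with Rps29 (-0.69), Rps28 (-0.47) and Rps21 (-0.46) farther from it.

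At P15, core members were again lower in primed cells. Of 77 tested, 57 fell and 0 rose (edgeR, adjusted over 15733 genes), where 28.4% of all genes fell and 28.2% rose. Both primed libraries lay below both naïve ones in 74 members, as in 41.1% of all genes, and above them in 2, as in 40.8%. The median log2 fold change was -0.25 for the core members and 0.00 for all genes, so that the median core member fell by 16.0%. No core member was called with a 2-fold change, against 23.2% of all genes. By class, 30 of 43 large subunit, 24 of 31 small subunit and 3 of 3 stalk genes fell. With library size alone the median of all genes was 0.10, that of the core members -0.15, and 36 fell while 2 rose. Leaving out 1 library at a time gave 42 to 56 falls.

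Of the core members, 56 fell at both passages, 19 at P5 only, and 1, Rpl38, at P15 only. Rpl24 was called at neither. The value of Rpl15, a large subunit protein, lay above 0 at P15 without passing the test (log2 fold change 0.06, edgeR adjusted p = 0.28). It had 953 and 933 CPM in naïve and 983 and 984 CPM in primed cells at P15, and it had fallen at P5, with a log2 fold change of -0.29.

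The 5 largest falls at P15 were those of Rps29, Rpl4, Rps28, Rps21 and Rpsa. Rps29, a small zinc-binding protein of the small subunit, had 699 and 484 CPM in naïve and 339 and 389 CPM in primed cells, a log2 fold change of -0.69 ± 0.09 (edgeR adjusted p = 8.52e-09). The naïve libraries of this gene differ more from each other than the primed ones do, and its call was lost with DESeq2's Wald test (adjusted p = 0.0243). Rps28 had 450 and 400 CPM against 300.2 and 313 CPM (-0.47 ± 0.06) and Rps21 had 707 and 647 CPM against 484 and 500.1 CPM (-0.46 ± 0.06). Both are short proteins of the small subunit, and their groups do not overlap. Rpl4 had 3039 and 2796 CPM against 2067 and 2114 CPM (-0.48 ± 0.05), and Rpsa had 2607 and 2409 CPM against 1842 and 1816 CPM (-0.45 ± 0.05). Rpl4 and Rpsa were thus among the 5 largest falls at both passages. Of the stalk genes, Rplp0 (-0.29 ± 0.05), Rplp1 (-0.26 ± 0.05) and Rplp2 (-0.25 ± 0.05) also passed the test at P15. The call of Rplp1 was lost without primed P15 replicate 2 (edgeR adjusted p = 0.0111) and that of Rplp2 with library size alone (edgeR adjusted p = 0.0125).

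The state effect differed between the passages for 39 core members (test of the difference in a fit of 8 libraries, edgeR, adjusted over 16926 genes). In all of them the log2 fold change was higher at P15, where 13.3% of all genes had a higher and 10.8% a lower one. Of the 77 core members, called or not, 70 had a smaller change at P15 than at P5 and 7 a larger one. The median difference was 0.20 in the core members and 0.00 in all genes. Among the members called it was largest for Rplp0 (0.50 ± 0.05, edgeR adjusted p = 1.24e-09), Rplp1 (0.48 ± 0.05) and Rps9 (0.43 ± 0.05). Rps9, which lies at the entry of the mRNA channel of the small subunit, had 1231 and 1232 CPM in naïve and 859 and 876 CPM in primed cells at P5. At P15 the same gene had 1204 and 1209 CPM in naïve and 1161 and 1108 CPM in primed cells, which did not pass the test (-0.09 ± 0.05, edgeR adjusted p = 0.149). The lowest difference among well counted members, -0.37 ± 0.14 for Rps29, did not pass either (edgeR adjusted p = 0.0409). The count was 15 higher and 3 lower with library size alone, which moved the median of all genes by -0.11. Fewer members were called without primed P5 replicate 1, some of them lower, with a core median of 0.16. Without primed P5 replicate 2 fewer were also called, with a core median of 0.21.

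The change from P5 to P15 was also tested within each state, with the same libraries as above. In primed cells 57 core members rose and 0 fell (edgeR, adjusted over 15957 genes), where 24.3% of all genes rose and 22.8% fell, with a median log2 fold change of 0.20 against 0.00 for all genes. Rplp1 rose by 0.47 ± 0.04 on the log2 scale from 1201 and 1241 CPM to 1739 and 1629 CPM (edgeR adjusted p = 7.53e-10). Rps12, a small subunit protein, rose from 927 and 990 CPM to 1315 and 1309 CPM (0.46 ± 0.04). Rpl27 rose from 796 and 756 CPM to 1051 and 1031 CPM (0.43 ± 0.04). In these 3 genes both libraries at P15 lay above both at P5. The same held for 67 core members, as for 38.4% of all genes, and 2 lay below, as did 39.3%. Fewer core members rose without primed P5 replicate 1 or replicate 2, with core medians of 0.15 and 0.20. Some fits without 1 primed library also had falls. With library size alone, which moved the median of all genes by -0.13, 25 rose and 5 fell. The 30 fibroblast markers also summed to more at P15 than at P5 in primed cells, as given above. With the feeder share taken off, 55 core members rose and 1 fell.

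In naïve cells 2 of 77 core members rose from P5 to P15 and 0 fell (edgeR, adjusted over 15683 genes), where 4.21% of all genes rose and 5.01% fell. The median log2 fold change was 0.02. Both libraries at P15 lay above both at P5 in 20 members and below in 13, where 28.8% and 29.3% of all genes did. Rpl38 went from 255 and 213 CPM to 329 and 306 CPM (0.44 ± 0.07, edgeR adjusted p = 0.000734) and Rps21 from 575 and 601 CPM to 707 and 647 CPM (0.20 ± 0.05, edgeR adjusted p = 0.00966). Both calls were lost without a low-count filter and after the feeder share was taken off, and that of Rpl38 with DESeq2's Wald test (adjusted p = 0.0152). Both calls also rest on few libraries. That of Rps21 was lost without naïve P5 replicate 1 (0.17), naïve P5 replicate 2 (0.23) or naïve P15 replicate 1 (0.14). Leaving out 1 replicate gave log2 fold changes of 0.31 to 0.57 for Rpl38 and 0.14 to 0.27 for Rps21. The median of the core members was then -0.01 to 0.04. A block on the replicate number gave 9 that rose and 9 that fell, although no source says that the numbers pair the samples.

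**Figure D3:**
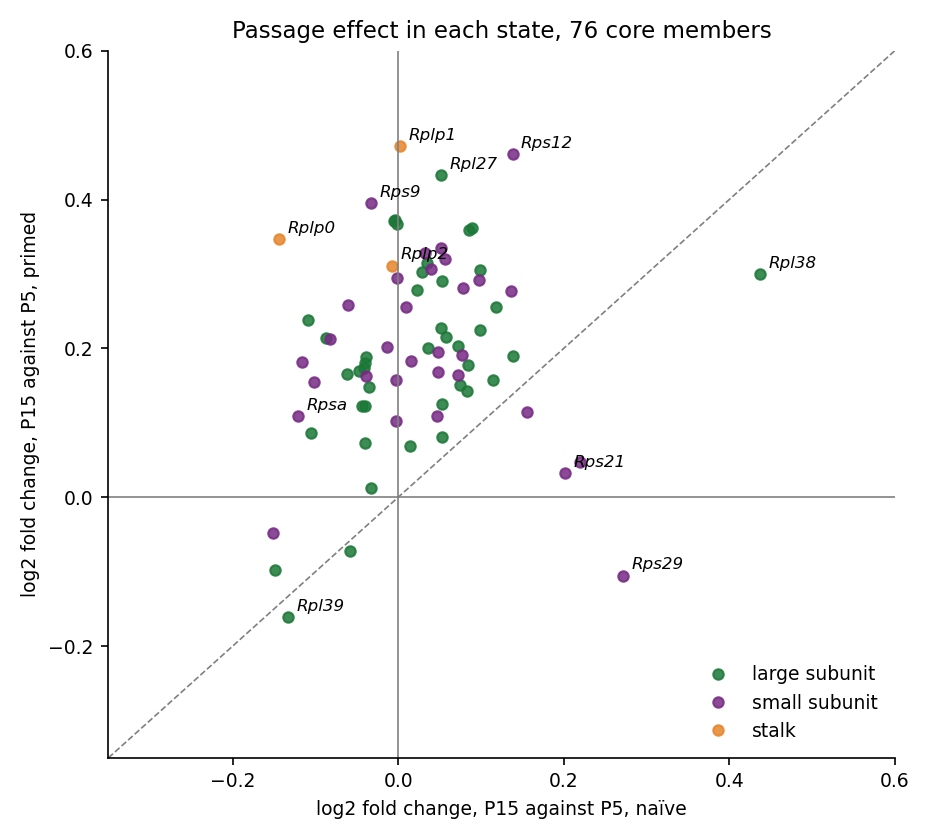
Log2 fold change from P5 to P15 in naïve cells (x axis) and in primed cells (y axis) for 76 core members, colored by class, without Rpl24; the dashed line marks equal change. Most points lie above the line, with medians of 0.02 on the x axis and 0.20 on the y axis, and Rpl38, Rps29, Rps28 and Rps21 lie below it.

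Coding length varied with some of these values. Across 76 core members without Rpl24, Pearson's r between log2 coding length and the state effect was -0.47 at P5 and 0.09 at P15. With the difference between passages it was 0.46. With the change from P5 to P15 it was -0.50 in naïve and 0.14 in primed cells. The 9 core members with under 300 coding bases had a median log2 fold change of -0.31 between the states at P5, the 46 between 300 and 600 bases -0.41, and the 22 over 600 bases -0.48. At P15 the same medians were -0.32, -0.22 and -0.29. In naïve cells from P5 to P15 they were 0.11, 0.04 and -0.04. The difference between replicates also varied with length. Across 76 core members without Rpl24, Pearson's r between log2 coding length and the size of the replicate log2 ratio was -0.42 in naïve and -0.60 in primed cells at P5, and -0.40 in naïve and -0.20 in primed cells at P15. These are correlations across genes of the same libraries, which are not independent, and the part of coding length or of library quality in the results was not tested. The 4 members on X had a median of -0.40 at P5 and -0.28 at P15, against -0.43 and -0.25 for the 73 on autosomes.

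The level of most core members lay in a narrow band. Per 1000 bases of coding sequence, the median was 2090 CPM in naïve cells at P5, with quartiles of 1786 and 2520 CPM, and 72 of 77 members lay within 2-fold of it. In primed cells at P5 the median was 1557 CPM per coding kb and 72 members lay within 2-fold. Across the 77 genes, which share libraries and lengths, Spearman's rho between the levels was 0.95 for naïve and primed cells at P5 and 0.71 for naïve cells at P5 and MEFs.

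Above this band lay Rpl41, the shortest ribosomal protein with 75 coding bases, at 17532 CPM per coding kb in naïve and 13422 in primed cells at P5, a value that a short coding length raises where reads from the untranslated ends are counted. Rplp1, also above it, had 5904 and 3571 CPM per coding kb. Rps2, at the mRNA entry of the small subunit, was the next highest in naïve cells with 3619 and 2474 and lay within the band. Below the band, Rpl29 had 892 and 754 CPM per coding kb, Rpl13a 149.7 and 116, and Rpl24 2.78 and 1.19. Rpl13a has 97.5% of its coding sequence covered by Gm45713 and Mir5121, and Gm45713 was listed at 0 counts in all 9 libraries. Its CPM were 93.6 and 88.8 in naïve and 66.9 and 74.95 in primed cells at P5. The levels of Rpl24 and Rpl13a are therefore uncertain, as other genes cover most of their coding sequence and the handling of reads in overlapping genes is not given in the sources used here.

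**Figure D4:**
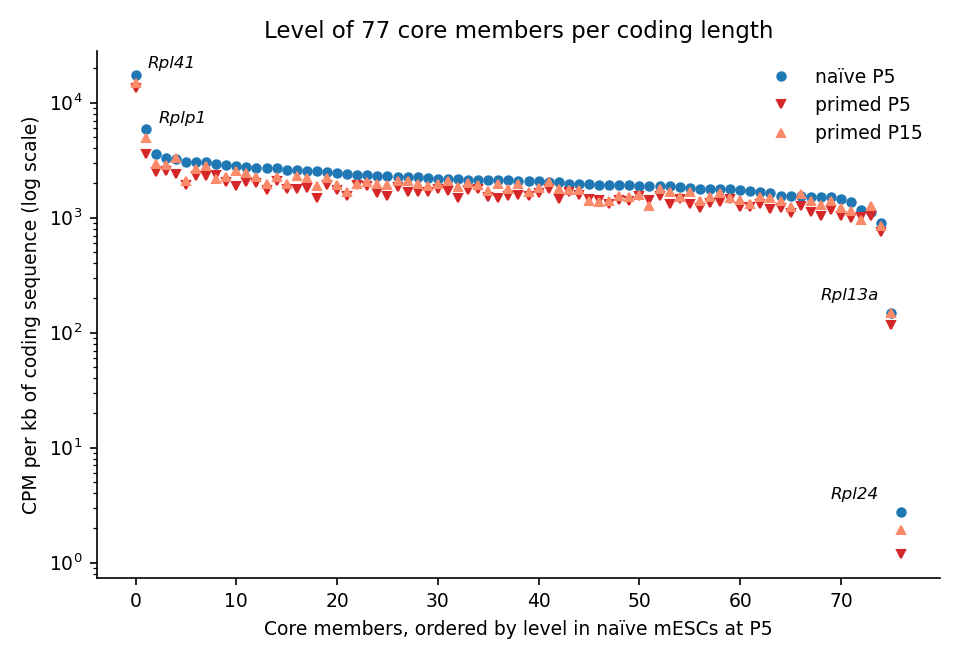
Level of 77 core members per kb of coding sequence (CPM, y axis on a log scale), ordered by the level in naïve cells at P5 (x axis), as means of 2 libraries in naïve P5, primed P5 and primed P15 cells. Most members form a band around 2090 CPM per coding kb in naïve cells, with Rpl41 and Rplp1 above it and Rpl13a and Rpl24 below it.

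Exact sharing with other transcripts was extensive. Of the 50-base windows in the coding sequence of a core member, a median of 93.0% were also in a transcript of another gene in GENCODE M21, and 29 of 77 members were shared in every window. With 100-base windows, which 76 members are long enough to hold, the median was 75.02%. A member shared windows with a median of 9 and up to 120 pseudogenes. The 1042 pseudogene entries concerned held counts equal to 4.07% to 4.69% of the core counts in cells of both states and 2.98% in MEFs. Across the 77 core members, Spearman's rho between the shared percentage and the state effect was 0.11 at P5 and -0.01 at P15.

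The start of the gene is shown for members the results turn on, since the TOP tract is the feature that TOP mRNAs have in common. RefSeq promoters on GRCm38.p6 (250 bases before to 50 after the annotated start) matched 57 of 77 core members and 6 of 6 paralogs. Runs of pyrimidines (C or T) were counted from their first C, on the gene's strand, and taken whole where any part lay within 50 bases of the start. A run of at least 8 was found in 82.5% of the core members and in 30.8% of all 27025 promoters. Each 30-base window given here has the longest run of the gene, of any length, in capitals, written 5′ to 3′ on the gene's strand.

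Rpl4, chr9:64173405-64173434, plus strand: gagcgtggCCTTCTCCTCTCCCCgtcatgg
Rplp2, chr7:141447639-141447668, plus strand: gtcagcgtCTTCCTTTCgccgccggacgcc
Rps12, chr10:23787180-23787209, minus strand: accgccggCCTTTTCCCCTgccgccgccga
Rpl38, chr11:114668572-114668601, plus strand: gcctcgttCTTTCCCCgttctcttcggttc
Rps9, chr7:3704028-3704057, plus strand: cgccttgtCTCTCTTTgtctcgggcctgag
Rplp0, chr5:115559472-115559501, plus strand: gcctggttCTCCTataaaaggcacacgcgg
Rpsa, chr9:120127705-120127734, plus strand: cggaagttCTCCCTTTTTgcttagcctgct
Rps28, chr17:33824576-33824605, minus strand: ggtgacgaCTCTgtcccgaggattcctggg

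Counted from the first C, the run is 15 bases long in Rpl4, 11 in Rps12, 10 in Rpsa, 9 in Rplp2 and 8 in Rpl38 and Rps9. Rplp0, the largest fall past the threshold at P5, has a run of 5, and Rps28, a large fall at P15, has one of 4. A match, or its absence, describes only these letters around the RefSeq start. Relative to that start, the run begins at base 1 in Rpl38, 9 in Rps12, 14 in Rplp0 and 27 in Rpl4. It begins before the start in Rplp2 (-4), Rps9 (-5), Rps28 (-35) and Rpsa (-53). Whether any of these runs is the TOP tract of the mRNA was not tested. The 47 members with a run of at least 8 had a median log2 fold change of -0.41 at P5 and -0.24 at P15, and the 10 without had -0.49 and -0.29. CTTTCC, searched on the gene's strand in the same 100 bases, was in 28.1% of the core and 4.67% of all promoters, and it can overlap a pyrimidine run. In the whole promoters, CCGGAAG (either strand, letters of the kind that ETS factors bind) was in 40.4% and 9.12%, and TATAAA (gene's strand) in 8.77% and 8.88%. Members with CCGGAAG had medians of -0.43 at P5 and -0.27 at P15, and those without had -0.42 and -0.23.

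The paralogs had a wider range of changes than the core members. At P5, 5 of 6 fell and 0 rose, where 31.1% of all genes fell and 31.2% rose. By at least 2-fold, 3 of them fell, against 22.3% of all genes called in either direction. The log2 fold changes of the 6 ranged from -3.01 to -0.13. At P15, 4 of the 5 tested fell and 0 rose, where 28.4% of all genes fell and 28.2% rose. Their coding sequences were 52.7% to 84.97% identical to those of the core genes they are named after, and none shared a 50-base window with it.

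Rpl10l, an intronless copy of the X-linked Rpl10 known for its role in male meiosis, fell most. It had 14.0 and 14.4 CPM in naïve cells at P5, 19.0 and 16.4 CPM in naïve cells at P15, and 1.21 and 2.36 CPM in primed cells at P5 (log2 fold change -3.01 ± 0.19, edgeR adjusted p = 2.12e-14). At P15 the primed libraries held 0 and 1 counts, and MEFs held 0. Against a limit of 3 counts in a library, the gene was at least 104-fold lower in primed than in naïve cells at P15 and at least 10.5-fold lower in primed cells at P15 than at P5. Rpl10, the core gene, had 1348 and 1335 CPM in naïve and 1014 and 1028 CPM in primed cells at P5 (-0.39 ± 0.03), and 1384 and 1357 CPM against 1251 and 1252 CPM at P15 (-0.13 ± 0.05, edgeR adjusted p = 0.0287). The core gene was thus counted far more often than the copy in every library.

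Rpl39l, a copy of Rpl39 known from testis and fast dividing cells, had 5.93 and 7.04 CPM in naïve and 2.88 and 1.69 CPM in primed cells at P5 (-1.49 ± 0.22, edgeR adjusted p = 1.01e-06). At P15 it had 7.52 and 9.65 CPM against 2.84 and 2.18 CPM (-1.78 ± 0.23, edgeR adjusted p = 1.31e-08), and MEFs had 7.25 CPM. The naïve and MEF values all lie above the primed ones. Rpl39 itself had 261 and 317 CPM in naïve and 254 and 182 CPM in primed cells at P5 (-0.40 ± 0.08). This call was lost with DESeq2's Wald test (adjusted p = 0.199) and without primed P5 replicate 2 (-0.16). It was also lost with library size alone (edgeR adjusted p = 0.0541), without a low-count filter (0.052) and with the feeder share taken off (0.0141). At P15 Rpl39 had 231 and 295 CPM against 191 and 196 CPM, and 524 CPM in MEFs. Its log2 fold change at P15 was -0.44, a call lost with DESeq2's Wald test (adjusted p = 0.0213).

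Rpl7l1, named after Rpl7 and with a role in ribosome assembly, fell at both passages. It had 221 and 235 CPM in naïve and 127 and 122 CPM in primed cells at P5 (-0.87 ± 0.04) and 246 and 252 CPM against 169 and 163 CPM at P15 (-0.58 ± 0.06). Rpl7 had 1704 and 1656 CPM against 1203 and 1284 CPM at P5 (-0.43 ± 0.03). Rps27l, a p53 target, had 267 and 256 CPM against 202 and 205 CPM at P5 (-0.36 ± 0.04). At P15 it had 299.7 and 281 CPM against 245 and 260.3 CPM (-0.19 ± 0.06). The P15 call was lost with library size alone (edgeR adjusted p = 0.174) and without naïve P15 replicate 1 or primed P15 replicate 1. It was also lost with the feeder share taken off (edgeR adjusted p = 0.0398) and with a block on the replicate number (edgeR adjusted p = 0.0248). Rps27 had 557 and 542 CPM against 425 and 466 CPM at P5 (-0.30 ± 0.04). Its change at P15, -0.15 ± 0.05, did not pass the test (edgeR adjusted p = 0.0159).

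Rpl22l1, whose mRNA is known to be held down by the Rpl22 protein, passed the test at neither passage. It had 105 and 106 CPM in naïve and 101 and 91.4 CPM in primed cells at P5 (-0.13 ± 0.05, edgeR adjusted p = 0.017) and 105 and 105 CPM against 113 and 119 CPM at P15 (0.15 ± 0.06, edgeR adjusted p = 0.04). The difference between these effects was 0.30 ± 0.08 (edgeR adjusted p = 0.00396). This call was lost with library size alone (edgeR adjusted p = 0.0765) and with DESeq2's Wald test (adjusted p = 0.0151). It was also lost with the feeder share taken off (edgeR adjusted p = 0.0134). Leaving out 1 replicate gave differences of 0.21 to 0.35. The call was lost without naïve P5 replicate 1 or 2, naïve P15 replicate 1, primed P5 replicate 2 or primed P15 replicate 2. Gm33051 covers 33.9% of the Rpl22l1 coding sequence. Rpl22 had 402 and 498 CPM in naïve and 402 and 382 CPM in primed cells at P5 (-0.20 ± 0.05, edgeR adjusted p = 0.002). The lowest naïve and the highest primed value nearly meet. The call was lost without naïve P5 replicate 2 (-0.06), primed P5 replicate 1 (-0.21) or primed P5 replicate 2 (-0.13). It was also lost with DESeq2's Wald test (adjusted p = 0.274) and library size alone (edgeR adjusted p = 0.932). The same held without a low-count filter (edgeR adjusted p = 0.102) and with the feeder share taken off (edgeR adjusted p = 0.0262). Rpl3l, a copy of Rpl3 known from muscle, had 17 and 29 counts in naïve and 1 and 5 counts in primed cells at P5 (-2.77 ± 0.63, edgeR adjusted p = 0.000272), and the call was lost without primed P5 replicate 1 (adjusted p = 0.0204). At P15 it had 7 and 13 counts against 0 and 1, below the filter of the test, and was at least 3.93-fold lower in primed cells against the limit of 3 counts.

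**Figure D5:**
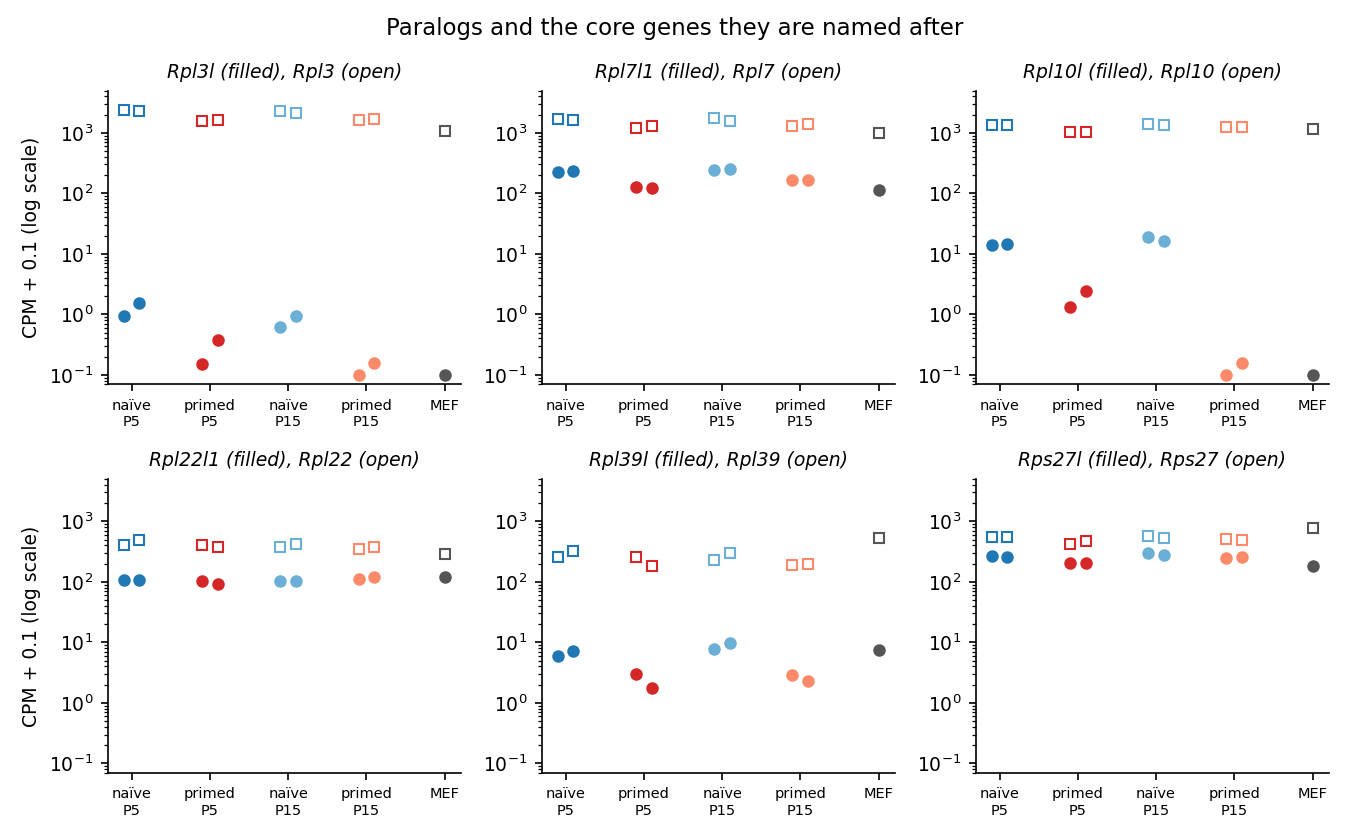
CPM plus 0.1 (log scale) of 6 paralogs (filled circles) and of the core genes they are named after (open squares) in each of the 9 libraries, by group. Rpl10l goes from 14.0 CPM or more in naïve cells to 0 and 1 counts in primed cells at P15, while Rpl22l1 stays between 91.4 and 119 CPM in all libraries.

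The starts of 4 paralogs are shown in the same way, for comparison with the core genes above. The run is at least 8 long in 4 of the 6 paralogs.

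Rpl10l, chr12:66284390-66284419, minus strand: aaatttggCCTCCattttgcggctggcggt
Rpl39l, chr16:10170194-10170223, plus strand: acccactgCCTCTCCCTagctcccaggcct
Rpl7l1, chr17:46782667-46782696, minus strand: gaggcgggCCTCTCTaccccgcccggtgag
Rpl22l1, chr3:28805503-28805532, plus strand: agcccgttCTCTTCCCacggctgcagctca

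Other parts of the ribosome and of its assembly were described by lists, beside the same background shares as above. Rack1, a small subunit protein that binds kinases, fell at both passages, with values of -0.52 at P5 and -0.22 at P15 on the log2 scale. Fau, a fusion with a small subunit protein, fell at P5 (-0.25) and had -0.09 at P15, which did not pass the test. Genes of large subunit assembly fell in 47 of 51 tested at P5 and 41 of 51 at P15, with medians of -0.76 and -0.47. Among them, Senp3 (-1.18 and -0.81), Mdn1 (-1.09 and -0.98) and Ftsj3 (-1.08 and -0.86) passed the test at both passages. Genes of small subunit assembly fell in 47 of 54 and 36 of 54 (medians -0.66 and -0.43), with Rrp9 at -1.42 and -1.004, Heatr1 at -1.18 and -0.96 and Nat10 at -0.97 and -1.02. The medians of the core members at the same passages were -0.43 and -0.25, and the difference between the lists was not tested.

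The RNA polymerase I list, for the enzyme that makes ribosomal RNA and its factors, fell in 19 of 21 at P5 and 12 of 21 at P15, with Taf1d at -1.17 and -1.36, Rrn3 at -1.15 and -0.92 and Polr2e at -0.89 and -0.62. Chaperones and importers of ribosomal proteins fell in 11 of 13 and 8 of 13, with Ltv1 at -1.15 and -0.80, Ipo5 at -0.74 and -0.50 and Ipo7 at -0.60 and -0.69. Other TOP mRNAs, chiefly of translation factors, fell in 17 of 19 and 13 of 19, with medians of -0.42 and -0.22. Npm1 (-0.86 and -0.52), Eif2s3x (-0.74 and -0.58) and Eef1b2 (-0.69 and -0.51) led them. Host genes of snoRNAs, many of which are also TOP genes, fell in 5 of 6 at P5 and in 6 of 6 at P15, with medians of -0.47 and -0.79, and Snhg1 had -0.94 and -1.14, Snhg5 -0.78 and -0.66 and Snhg8 -0.52 and -0.89.

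From P5 to P15 in primed cells, 40 of 51 large subunit and 38 of 54 small subunit assembly genes rose. So did 12 of 21 genes of RNA polymerase I, 9 of 13 chaperones and 13 of 19 other TOP genes. In these lists, 1 large subunit assembly gene and 2 other TOP genes fell. Of the 6 snoRNA host genes 0 rose and 2 fell. In naïve cells 7 of 51 large subunit and 2 of 54 small subunit assembly genes rose, and 0 fell in either list. Between the states, 1 small subunit assembly gene rose at P5. At P15, 2 large subunit and 1 small subunit assembly genes, 1 gene of RNA polymerase I and 1 other TOP gene rose. Regulators of the TOP mRNAs and of ribosomal protein genes also had calls in both directions. Of 17 tested, 12 fell and 2 rose at P5 and 6 fell and 2 rose at P15. Mycn, a MYC factor of pluripotent cells, had 356 and 353 CPM in naïve and 88.5 and 92.9 CPM in primed cells at P5 and log2 fold changes of -1.96 and -1.65. Eif4ebp1, a brake on cap-dependent translation and an mTOR target, had -1.09 and -1.10. Mycl had 1.28 and 2.36.

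In MEFs, read from 1 library and so without a test, 28 of 77 core members lay below all 8 naïve and primed libraries, 6 above all of them and 43 between. Of the 17180 genes with at least 10 counts in 2 or more libraries, 30.9% lay below all 8 and 29.9% above. The 6 were Rpl39 (524 CPM against 182 to 317), Rps27 (761 against 425 to 564), Rpl38 (378 against 196 to 329), Rps28 (470.2 against 274 to 450.3), Rpl37a (734 against 457 to 658) and Rpl24. The lowest relative to the mean of the other groups were Rpl26 (377 CPM against 661 to 856), Rpl3 (1089 against 1544 to 2390) and Rpl4 (1445 against 1911 to 3058). The feeder share of a library, taken as the middle value over 30 fibroblast genes of its level relative to MEFs, ranged from 18.1% to 28.1%. At P5 it was 18.3% and 19.2% in naïve and 18.9% and 18.1% in primed libraries. At P15 it was 22.5% and 23.8% in naïve and 27.9% and 28.1% in primed libraries. The summed fibroblast markers had the opposite order at P15, with lower sums in primed libraries. The feeder share is a rough measure, since single markers reached up to 3.91 times the MEF level. With the feeder share taken off, the median state effect of the core members was -0.49 at P5 and -0.29 at P15, and 72 and 48 fell.

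A further 6 entries match the symbol pattern but are pseudogenes in GENCODE M21, and they are not members. Of these Rps4l, a transcribed processed pseudogene on chromosome 6, was the most changed. It had 343 and 363 CPM in naïve and 86.3 and 87.2 CPM in primed cells at P5, 362 and 331 CPM in naïve and 17.4 and 16.6 CPM in primed cells at P15, and 39.9 CPM in MEFs, with log2 fold changes of -2.02 ± 0.04 and -4.34 ± 0.08. Its primed libraries at P15 thus lie below MEFs and its naïve libraries above. Rps4x, the X-linked gene of the same name root, had 1576 and 1519 CPM against 1139 and 1158 CPM at P5 (-0.43 ± 0.03) and 1430 and 1362 CPM against 1086 and 1122 CPM at P15 (-0.33 ± 0.05). The processed pseudogenes Rps3a2 and Rps3a3 had 1046 to 1765 and 2108 to 3608 counts in naïve and primed libraries, and 23 and 59 in MEFs.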

How the data were processed

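Per the labels and the study's methods, the authors used Cutadapt for trimming, HISAT2, set to report several alignments of a read, for alignment to mm10 and featureCounts with Ensembl genes, and the deposited values are raw counts. The annotation release and the featureCounts settings for strand, multiple alignments and overlapping genes are not given in the sources used here. GENCODE M21 named 54165 of the 54232 gene IDs, and promoters came from RefSeq. Spike-in rows (92, no counts in any library) were dropped.

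The software was R 4.3.3, and of its packages edgeR (4.0.16), limma (3.58.1) and DESeq2 (1.42.0). For each comparison its own 4 libraries were scaled by TMM and fitted, with a floor of 10 counts reached in 2 or more libraries. The tests were quasi-likelihood F-tests of edgeR, adjusted after Benjamini and Hochberg across every gene in the fit, and a call needed an adjusted p under 0.01. Between passages, effects were compared in a fit of 8 libraries. MEFs, with 1 library, entered no fit. SE is the size of the log2 fold change divided by the root of F. Where no read was counted, up to 3 counts remain possible (0.148 to 0.221 CPM, for MEFs 0.129 CPM), and this covers counting error alone. Replicates differed by more than sampling noise (chi-square per gene 2.10 to 3.28). Fits were tested on simulated data.

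The text names the paralogs and their core genes, the stalk genes, Rpsa, the 5 largest changes past the threshold in each direction between states, the 3 largest between passages, the 3 highest and 3 lowest levels, and from each other list the 3 genes with the lowest adjusted p. Rpl15, Rpl36a, pseudogenes, MEF extremes, markers and overlapping genes were named after their values were seen. Results of some single genes are not reported here. Members and lists were chosen with earlier results of these data known. Alternatives were other scalings (DESeq2's size factors, library size alone, TMM without the members), no filter, DESeq2's Wald test, removal of the feeder share, leaving out each replicate, a fit of 8 libraries and a replicate block. A crossed block and a share with pseudogene entries were added after seeing the data.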

Additional observations from a re-analysis of the deposited data

Results flagged for a closer look

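The state effect differed between P15 and P5 for 39 of 77 core members, all with a higher log2 fold change at P15. The test was of the interaction term of the fit of 8 libraries (edgeR's quasi-likelihood test, adjusted over 16926 genes). Among the named members the difference of the log2 fold changes, P15 minus P5, was 0.50 for Rplp0, 0.48 for Rplp1, 0.43 for Rps9, 0.32 for Rplp2 and 0.24 for Rpsa, each with a smaller fall at P15. Of the paralogs, the difference was 0.30 for Rpl7l1, 0.30 for Rpl22l1, whose values lay below 0 at P5 and above 0 at P15, and -5.95 for Rpl10l, where the primed libraries at P15 held 0 and 1 counts, so that the size depends on the prior count. The call of Rpsa was lost with library size alone (edgeR adjusted p = 0.0574) and without primed P5 replicate 1 (0.039) or replicate 2 (0.0148). That of Rpl7l1 was lost with library size alone (edgeR adjusted p = 0.0364), without naïve P5 replicate 2 (0.0112) and without primed P5 replicate 2 (0.0233). That of Rpl22l1 was lost without naïve P5 replicate 1 or 2, naïve P15 replicate 1, primed P5 replicate 2 or primed P15 replicate 2. The differences in these fits were 0.21 to 0.31. The Rpl22l1 call was lost too with library size alone (edgeR adjusted p = 0.0765) and with DESeq2's Wald test (adjusted p = 0.0151). It was also lost with the feeder share taken off (edgeR adjusted p = 0.0134). The summed fibroblast markers rose from P5 to P15 in both states. Their part in these differences was not tested beyond the feeder share, with which 37 core members differed.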

How the results depend on the processing

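With 2 libraries a group, the spread is estimated largely across genes, and reads shared with pseudogenes limit what the count of 1 member means. With DESeq2's size factors, with TMM without the members and with DESeq2's Wald test, 71 to 75 core members fell at P5 and 58 to 60 at P15. Relative to the median of all genes, the core median was -0.43 at P5 and -0.25 at P15 with TMM as with library size alone. Scaling shifts all genes of a comparison by nearly the same amount, so these equal values cannot show whether the result depends on it. With library size alone the core medians were -0.22 at P5, -0.15 at P15, 0.0869 for the difference between passages and 0.0639 for primed cells from P5 to P15. The counts were then 36 lower at P15, 15 higher for the difference, 7 called in naïve cells and 25 higher in primed cells. With the feeder share taken off, the core median was -0.49 at P5 and 0.26 for primed cells, and 0 core members were called in naïve cells. Without a low-count filter the primed median was 0.22 and 0 were called in naïve cells, and with 8 libraries in one fit 5 were called there. The causes were not tested.

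Leaving out 1 replicate gave 72 to 76 falls and medians of -0.46 to -0.38 at P5, 42 to 56 and -0.31 to -0.23 at P15, 18 to 44 and 0.16 to 0.23 for the difference, 1 to 9 calls and medians of -0.01 to 0.04 in naïve cells, and 27 to 63 and 0.15 to 0.21 in primed cells. The share of counts was then 8.25% to 8.27% in naïve P5, 6.82% to 7.02% in primed P5, 8.002% to 8.26% in naïve P15 and 7.26% to 7.34% in primed P15. Some of these fits also called core members in the opposite direction, for the difference and in primed cells.

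Replicate numbers were not taken to pair the samples, since no source ties equal numbers to a shared culture or day. Over 9998 genes the replicate differences of the states correlated at -0.13 at P5 and -0.19 at P15, while those of the passages correlated at 0.16 in naïve and 0.16 in primed cells, and 2 pairs cannot settle whether the numbers are shared between passages. A replicate block gave 75 falls at P5, 46 at P15, 35 for the difference, 18 calls in naïve cells and 62 rises in primed cells. The crossed block, chosen after seeing the data, gave 76 falls at P5 and 71 at P15.

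The share of counts was 8.41% (naïve P5), 8.37% (naïve P15), 7.48% (primed P15) and 6.0002% (MEFs) without mitochondrially encoded genes in the total, and 8.65% (naïve P5), 8.65% (naïve P15) and 7.61% (primed P15) with the feeder share taken off. With pseudogene entries added, chosen after seeing the data, it was 8.63% (naïve P5), 7.21% (primed P5), 8.50% (naïve P15), 7.63% (primed P15) and 6.09% (MEFs).

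Of the values of named genes, 976 kept direction and side of the threshold, 50 lost the call, 28 gained one and 18 changed sign. With library size alone the sign changed for Rpl22l1 (0.0704) and Rpl22 (0.0060) at P5, Rpl13a at P15 (0.0067), Rplp1 in naïve cells (-0.0215), and Rpsa (-0.023) and Rpl39l (-0.0001) in primed cells. Rplp1 in naïve cells was -0.0064 without a filter and -0.0048 with 8 libraries in one fit. With the feeder share taken off Rplp2 was 0.0358 in naïve and Rpl39l -0.57 in primed cells. Leaving out a replicate gave -0.8151 to 0.0919 for Rpl24 at P15, -0.6146 to 0.1485 for Rpl39l and -3.8312 to 0.0201 for Rpl3l in the difference, -0.023 to 0.031 for Rplp1 and -0.0486 to 0.0365 for Rplp2 in naïve cells, and -0.2094 to 0.5551 for Rpl39l in primed cells.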
